A study of Mus musculus with 59 samples.

Results

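*Elf5*, *Gata2*, *Gata3*, *Hand1*, *Tead4* and *Tfap2a* are 6 genes for transcription factors of the trophoblast, the lineage that builds the embryonic part of the placenta. They were taken by symbol, with no threshold on a measured value, and all 6 were found among the 24391 genes of the deposited expression tables. The tables hold RNA-seq values of 59 libraries from 6 conditional mouse embryonic stem cell (ESC) lines that carry ERT2-Cre, a Cre recombinase switched on by 4-hydroxytamoxifen (4-OHT). Every line was measured as ESCs, kept with LIF and 3 kinase inhibitors on mouse embryonic fibroblast feeders, and as embryoid bodies (EBs), aggregates formed in 2 days of suspension culture without these additions. Control groups received no 4-OHT.

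The 19 libraries of the *Pcgf1* line were 4 of control ESCs (Pcgf1f/f), 5 of *Pcgf1*-KO ESCs (Pcgf1delta/delta, with 4-OHT) and 5 from EBs of either state. The *Ring1A*-pm; *Ring1B*-cpm line had 2 libraries in each group. Its controls were Ring1apm/pm;Ring1b and its mutants, treated with 4-OHT, Ring1apm/pm;Ring1bpm/pm, so the *Ring1A* point mutation was present in all 8 libraries. Each of the other 4 lines also had 2 libraries per group: *Ring1A/B* (Ring1a-/-;Ring1bf/f against Ring1a-/-;Ring1bdelta/delta, with Ring1a-/- in the controls too), *Pcgf2/4*, *Pcgf3/5* and *Pcgf6* (floxed against deleted alleles). Each genotype was 1 cell line. Nothing in the labels says that replicates came from separate cultures, so p-values measure the spread between these libraries only, which may be technical.

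The trophectoderm is the outer layer of the blastocyst and the source of the trophoblast, a fate that ESCs do not normally take. TEAD4 binds DNA and works with the co-activators YAP and TAZ, which the Hippo pathway restrains, and it acts upstream of *Cdx2* and *Gata3* in the trophectoderm. GATA2 and GATA3 are zinc-finger factors and TFAP2A is an AP-2 factor that act together in trophoblast specification, ELF5 is an ETS factor that sustains trophoblast stem cells, and HAND1 is a basic helix-loop-helix factor of trophoblast giant cells that also acts in extra-embryonic mesoderm and heart. Polycomb repressive complex 1 (PRC1) adds a single ubiquitin to histone H2A through RING1A or RING1B, and the PCGF subunit sets which variant of the complex forms. PCGF1 belongs to a variant that contains the CpG-binding protein KDM2B, and many developmental regulators with CpG-rich promoters are PRC1 targets.

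Because of that last point, promoter windows are shown for the genes with the most uneven CpG content, with each CG in capitals. RefSeq windows (build GRCm38.p6, 250 bases before to 50 after a transcript start) were at hand for 4 of the 6 genes, *Elf5*, *Gata2*, *Gata3* and *Tfap2a*. The first shown is the more upstream of the *Elf5* starts (chr2:103411848-103412147, + strand), the next is a *Gata2* start (chr6:88193641-88193940, + strand) and the last is *Gata3* (chr2:9878551-9878850, - strand).
Elf5: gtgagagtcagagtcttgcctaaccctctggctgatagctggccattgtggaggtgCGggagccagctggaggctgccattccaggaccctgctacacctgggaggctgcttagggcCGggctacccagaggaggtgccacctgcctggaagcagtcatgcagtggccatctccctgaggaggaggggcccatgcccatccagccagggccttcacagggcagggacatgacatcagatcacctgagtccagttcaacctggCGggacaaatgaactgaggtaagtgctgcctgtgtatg
Gata2: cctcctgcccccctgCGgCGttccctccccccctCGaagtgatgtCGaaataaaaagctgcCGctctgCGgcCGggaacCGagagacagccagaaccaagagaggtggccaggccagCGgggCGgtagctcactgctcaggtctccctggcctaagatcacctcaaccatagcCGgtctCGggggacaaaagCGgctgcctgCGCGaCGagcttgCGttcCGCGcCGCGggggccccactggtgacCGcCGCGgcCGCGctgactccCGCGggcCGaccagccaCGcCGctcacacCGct
Gata3: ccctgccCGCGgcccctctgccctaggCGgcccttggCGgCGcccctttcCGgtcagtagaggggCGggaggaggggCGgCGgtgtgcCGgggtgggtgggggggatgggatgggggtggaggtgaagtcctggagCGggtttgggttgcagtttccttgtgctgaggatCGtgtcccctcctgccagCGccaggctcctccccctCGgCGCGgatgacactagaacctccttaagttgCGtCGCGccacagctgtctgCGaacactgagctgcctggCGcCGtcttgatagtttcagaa

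The *Elf5* window held 3 CG pairs, and 31.4% of the 32851 windows of this length held as few or fewer. *Gata2* held 32, more than 90.5% of the windows, and *Gata3* held 22, more than 76.9%. The second window of *Elf5* held 10 CG pairs, the second of *Gata2* 29, and those of *Tfap2a* 15 and 11, where the median window held 7. The letters GGAATG, a core recognised by TEAD factors, occurred once in the printed *Elf5* window on either strand and once in the second *Gata2* window, and in 14.66% of all windows. GCCNNNGGC, an AP-2 core, was found 3 times in the *Gata3* window and once in the second *Gata2* window (16.59% of all windows), while the GATA core AGATAA was in none of the 7 windows of these genes (11.18% of all). These are matches of letters, not measured binding.

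On the mm9 build that the files use, GENCODE vM1 places *Elf5* at chr2:103251845-103291146 (+ strand), *Gata2* at chr6:88143885-88157024 (+), *Gata3* at chr2:9778705-9811661 (-), *Hand1* at chr11:57642207-57646320 (-), *Tead4* at chr6:128174306-128250841 (-) and *Tfap2a* at chr13:40811044-40829192 (-). Exons of *Gata3* overlap those of 9230102O04Rik on the same strand, and exons of *Gata3* and *Tfap2a* overlap antisense transcripts. Whether counting used strand is not stated, so values of these genes may include reads from their neighbours.

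Values are TPM, transcript abundances that correct for gene length and are scaled to sum to 1000000 in each library. Differences are given on the log2(TPM + 0.1) scale, which understates changes of genes near 0, and were tested with limma in 1 fit per line over all genes above 0 in a library, with Benjamini-Hochberg adjustment and a threshold of 0.05 (two-sided). The depth of the libraries is unknown. They listed between 6039 and 9139 genes at 0. *Pcgf1* itself ran from 10.7 to 13.6 TPM in ESCs without 4-OHT against 0.627 to 2.77 with it, and from 7.30 to 16.6 in EBs without against 0.978 to 2.47 with it. *Rnf2*, which encodes RING1B, was at 54.5 to 85.8 TPM in all groups of the point mutant line, where the mutation changes the protein and not the transcript's presence. The ESC and EB labels of both lines matched their markers. The naive pluripotency gene *Klf4* was at 655 to 1664 TPM in ESCs and 3.54 to 74.6 in EBs of the *Pcgf1* line, and at 262 to 334 and 37.2 to 122 in the point mutant line. *Fgf5*, a marker of the formative epiblast, ran the other way, with 0 to 0.438 against 8.46 to 68.5 and 0.198 to 0.703 against 2.91 to 44.0.

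Levels of the 6 genes spanned a wide range. *Tead4* was the most abundant in the libraries as a whole, at 1.12 to 114 TPM, followed by *Gata2* at 0.342 to 26.4. *Tfap2a* ranged from 0.296 to 9.60 and *Gata3* from 0.0896 to 8.16, and these 4 genes were above 0 in all 59 libraries. *Hand1* was above 0 in 48 libraries, with a median of 0.450 and a highest value of 22.5. *Elf5* was above 0 in 28 and never passed 1.00 TPM. In the *Pcgf1* line it was above 0 in 4 of 19 libraries, all of them ESCs.

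The change from ESCs to EBs was compared first in controls of the *Pcgf1* line. *Gata2*, *Gata3*, *Tead4* and *Tfap2a* were lower in EBs, and *Hand1* and *Elf5* did not pass the test. These 4 calls of 6 stand beside 24.9% of all 20594 genes tested that passed in either direction, and 13.4% that fell.

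In control ESCs *Tead4* stood at 26.8, 64.2, 68.3 and 38 TPM, and in control EBs at 9.56, 23.6, 11.2, 22.3 and 17. Every EB library lay below every ESC library, and the difference was -1.54 (SE 0.42, limma adjusted p = 0.0104). *Gata2* stood at 7.03, 17.5, 17.5 and 12 TPM in the ESC libraries, and EB libraries held 0.711, 0.715, 2.10, 0.514 and 0.422. The groups were again separate, with means of 13.5 ± 5.05 (SD, n = 4) and 0.892 ± 0.686 (n = 5). The difference of -3.90 (SE 0.47, 95% interval -4.88 to -2.91, limma adjusted p = 8.49e-06) was larger in size than that of the other 5 genes. *Tfap2a*, at 2.34, 2.16, 2.46 and 2.73 TPM in ESCs, fell to 0.514, 0.443, 1.01, 1.27 and 1.82 in EBs without overlap (-1.34, SE 0.38, limma adjusted p = 0.0154, and 0.0523 when only these 2 groups were fitted). *Gata3* was at 0.974, 2.24, 1.24 and 2.02 TPM in ESCs and at 0.0896, 0.361, 1.06, 0.296 and 0.379 in EBs. Here the highest EB library exceeded the lowest ESC library, and the difference was -1.85 (SE 0.52, limma adjusted p = 0.0140). The groups of 21.7% of all genes did not overlap in this comparison, against 3 of these 6. Libraries with the same replicate number deviated together in this line and were treated as pairs, which is an assumption. Each of the 4 genes was lower in the EB library of 4 of 4 pairs. The pairs, here and below, fall into 3 library series, so they are not all independent. How many of all genes agreed in every pair was not computed.

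The low genes behaved differently. Control ESCs held *Hand1* at 0.471, 0, 0 and 0.128 TPM, and control EBs held it at 0.759, 0, 0, 0 and 0, so it was listed at 0 in 4 of 5 EB libraries. *Elf5* was at 0, 0.189, 0 and 0.0723 in control ESCs and listed at 0 in every EB library of the line.

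**Figure D1:**
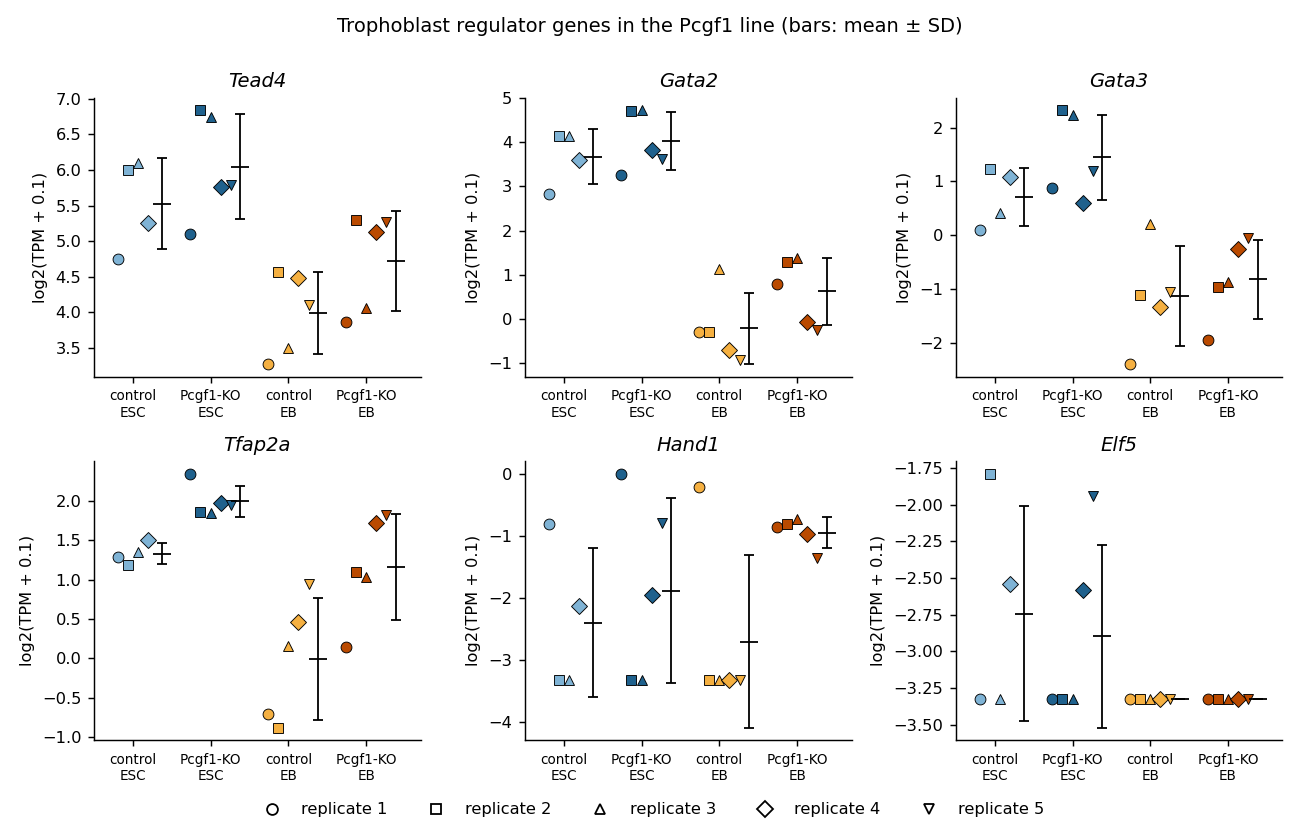
Levels of the 6 genes in the 19 libraries of the *Pcgf1* line, as log2(TPM + 0.1) by group, with a marker shape per replicate number and bars for mean ± SD. *Gata2*, *Tead4* and *Tfap2a* in control EBs lie below all control ESC libraries, and *Elf5* lies on the floor in every EB library.

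The *Pcgf1*-KO cells were compared the same way, and there 3 of 6 genes were lower in EBs (18.3% of all genes called, 10.2% lower). *Gata2* was at 9.52, 26.1, 26.4, 14 and 12.2 TPM in *Pcgf1*-KO ESCs and at 1.63, 2.33, 2.5, 0.847 and 0.738 in *Pcgf1*-KO EBs, a difference of -3.40 (SE 0.44, limma adjusted p = 2.33e-05). *Gata3* was at 1.74, 4.89, 4.6, 1.41 and 2.18 TPM in ESCs and at 0.159, 0.415, 0.444, 0.732 and 0.859 in EBs (-2.27, SE 0.49, limma adjusted p = 0.00299). Both genes were separate between the stages in knockout cells. *Tead4*, at 34.1, 114, 107, 54.3 and 55.4 TPM in ESCs and 14.4, 39.2, 16.6, 35.0 and 38.6 in EBs, differed by -1.32 (SE 0.39, limma adjusted p = 0.0237). That call was lost without *Pcgf1*-KO EB replicate 1 or 3 and without *Pcgf1*-KO ESC replicate 2 or 3, with limma adjusted p = 0.0692, 0.0683, 0.0702 and 0.0669 in turn. *Tfap2a* was at 4.96, 3.54, 3.49, 3.81 and 3.76 TPM in ESCs and at 1.00, 2.04, 1.94, 3.20 and 3.43 in EBs. It did not overlap between the stages, as 15.2% of all genes did not, and differed by -0.83 (SE 0.36, limma adjusted p = 0.131, and 0.0448 once pairs were fitted as a block, under which 36.8% of all genes were called). All 4 genes were lower in the EB library of 5 of 5 pairs.

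Feeder cells are a second source of RNA in the ESC libraries. The summed TPM of 18 fibroblast markers was 295 to 342 in control and 249 to 286 in *Pcgf1*-KO ESCs, and 40.5 to 85.7 and 28.3 to 53.7 in the EBs, with 0 to 4 of the markers at 0 in a library. The defining collagen gene *Col1a1* was at 95.4 to 218 TPM in the ESCs and at 3.49 to 9.25 in the EBs. The markers' part in the falls of the 4 genes was not tested. In such bulk samples, fewer cells of a type and less RNA per cell cannot be told apart.

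The effect of *Pcgf1* deletion was then compared within each stage. None of the 6 genes passed the limma test in ESCs, where 0.641% of all genes did, and none was under an unadjusted p of 0.05 or passed with the replicate block (5.31% of all genes). Here and below, the share of all genes under an unadjusted p of 0.05 was not counted. *Tead4* was 0.52 higher on the log2 scale in *Pcgf1*-KO ESCs (95% interval -0.35 to 1.4, limma adjusted p = 0.848), *Gata2* 0.35 (-0.63 to 1.34, adjusted p = 0.967), *Gata3* 0.74 (-0.37 to 1.84, adjusted p = 0.817) and *Tfap2a* 0.66 (-0.15 to 1.47, adjusted p = 0.709). The lowest *Tfap2a* value of *Pcgf1*-KO ESCs, 3.49 TPM, lay above the highest control value, 2.73, a separation shown by 4.66% of all genes. Within pairs, *Tead4* was higher in the knockout library by 0.35 to 0.83, *Gata2* by 0.22 to 0.59 and *Tfap2a* by 0.47 to 1.05, in 4 of 4 pairs each. *Gata3* was higher in 3 of 4 pairs. *Hand1* stood at 0.897, 0, 0, 0.159 and 0.474 TPM and *Elf5* at 0, 0, 0, 0.0673 and 0.160 in *Pcgf1*-KO ESCs, and the highest *Hand1* and *Elf5* values of control ESCs were 0.471 and 0.189.

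In EBs, *Tfap2a* and *Hand1* were higher in *Pcgf1*-KO cells when the replicate number was a block, which assumes that same-numbered libraries are pairs. Without the block no gene of the 6 passed, apart from *Tfap2a* with quantile normalization (2.69% of all genes called) or without *Pcgf1*-KO EB replicate 1. In the fit of all libraries without the block 1.95% of all genes were called, and 2 of the 6 genes were under an unadjusted p of 0.05; with it 10.4% were called. Control EBs held *Tfap2a* at 0.514, 0.443, 1.01, 1.27 and 1.82 TPM and *Pcgf1*-KO EBs at 1.00, 2.04, 1.94, 3.20 and 3.43, with means of 1.01 ± 0.570 and 2.32 ± 0.995 (SD, n = 5 each). The groups overlapped, but within pairs the knockout library was higher in 5 of 5, by 0.84 to 1.98. Its difference was 1.17, with SE 0.36 and limma adjusted p = 0.119 without the block and SE 0.31 and adjusted p = 0.0246 with it. *Hand1*, listed at 0 in 4 of 5 control EB libraries, was at 0.450, 0.469, 0.502, 0.414 and 0.291 TPM in *Pcgf1*-KO EBs and above the control in 4 of 5 pairs. The control library of the remaining pair, at 0.759 TPM, exceeded every knockout library. The limma adjusted p for *Hand1* was 0.284 without and 0.0389 with the block, and no fold is given against a group mostly listed at 0.

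*Gata2* and *Tead4* were also higher in the *Pcgf1*-KO library of 5 of 5 EB pairs, by 0.24 to 1.58 and 0.55 to 1.17. Neither passed the test: *Gata2* differed by 0.84 (95% interval -0.08 to 1.77, limma adjusted p = 0.496, and 0.0512 with the block) and *Tead4* by 0.74 (-0.08 to 1.56, adjusted p = 0.505, and 0.0888 with the block). *Gata3* differed by 0.32 (-0.72 to 1.36, adjusted p = 0.931), and was higher in 4 of 5 pairs. Some of these EB pairs share a library series, and the share of all genes higher in every pair was not computed. None of the 6 genes was free of overlap in EBs, where 3.05% of all genes were. The test of whether the knockout effect differed between EBs and ESCs called none of the 6 genes, with no unadjusted p under 0.05 among them and 0.00486% of all genes called. So few calls among all genes say little about the 6, and missing this test does not show that the stages were alike.

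**Figure D2:**
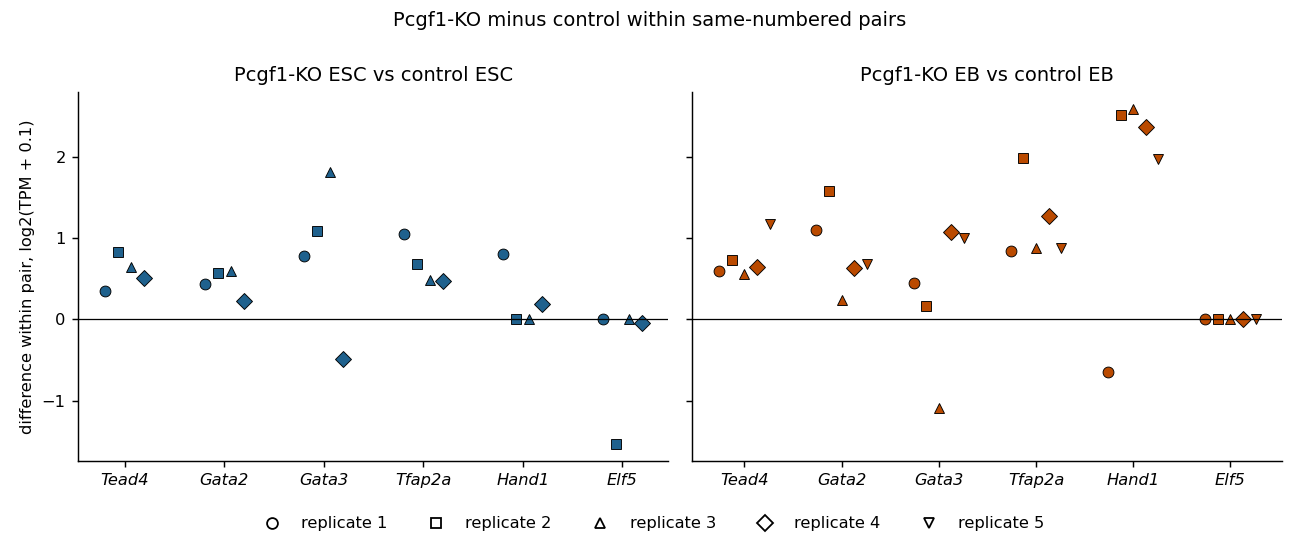
*Pcgf1*-KO minus control within same-numbered pairs of libraries, as a difference of log2(TPM + 0.1), for ESCs (4 pairs) and EBs (5 pairs). All pairs lie above 0 for *Gata2*, *Tead4* and *Tfap2a* in both stages. Some pairs share a library series, and the share of all genes with such agreement was not computed.

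**Figure D3:**
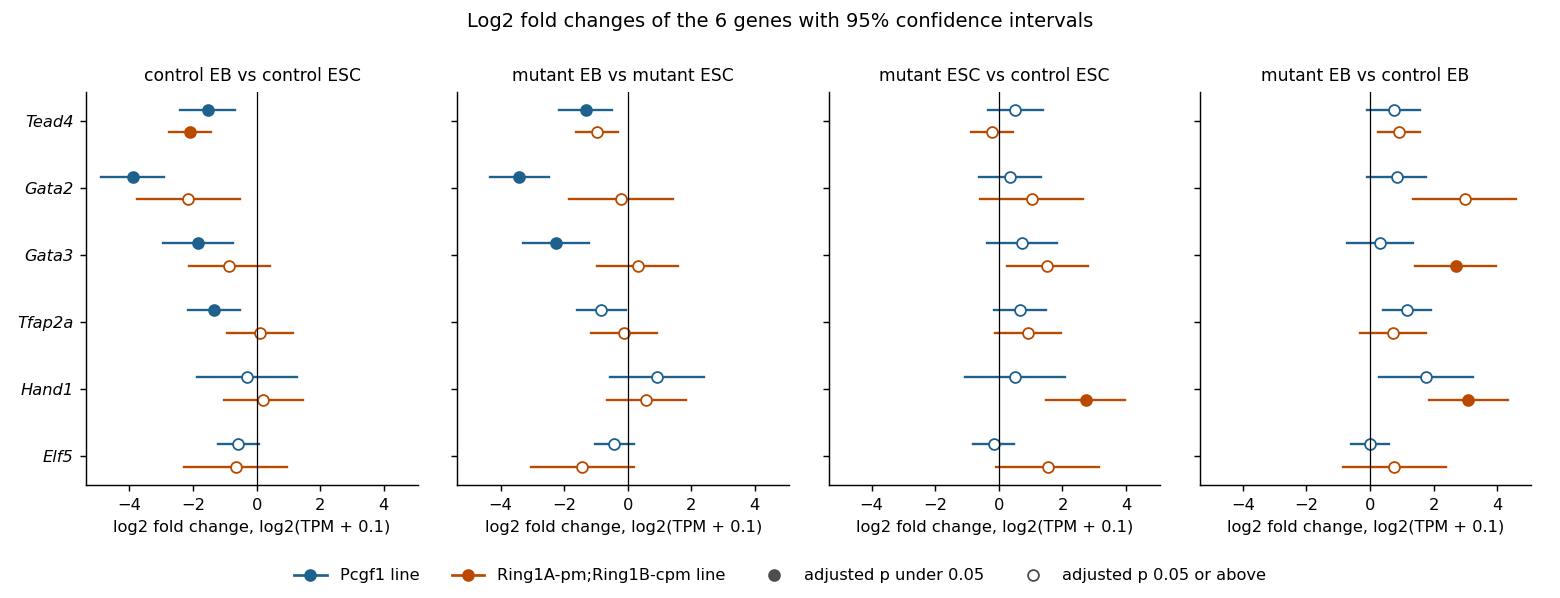
Log2 differences of the 6 genes with 95% confidence intervals in 4 comparisons, for the *Pcgf1* line (blue) and the point mutant line (orange), where filled points passed an adjusted p of 0.05. Filled blue points occur only in EBs against ESCs, all below 0, and filled orange points above 0 are *Hand1* in both mutant comparisons and *Gata3* in EBs.

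The point mutant line addresses the ubiquitin-adding activity of RING1A and RING1B, since the mutant proteins remain in the cell. *Hand1* was higher in point mutants at both stages, *Gata3* was higher in point mutant EBs, and *Tead4* fell from control ESCs to control EBs. With 2 libraries per group these calls are fragile, and several were lost in alternative fits as given below each.

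*Hand1* was at 0.873 and 0.247 TPM in control ESCs and at 3.32 and 4.25 in point mutant ESCs. The difference of 2.73 (SE 0.53, 95% interval 1.49 to 3.98) had a limma adjusted p of 0.0467, and *Hand1* was the only 1 of the 6 genes called in ESCs (2.54% of all genes called, 2.34% higher). The call was lost when any 1 of the 8 libraries was left out (1.99 to 3.47), with no filter on low genes, with quantile normalization, where the difference was 2.04, and when only both ESC groups were fitted. The last 3 of these settings called 0.812%, 1.02% and 0% of all genes. A fit that calls no gene says nothing about *Hand1* in particular. In EBs *Hand1* was at 0.480 and 0.686 TPM in controls and at 5.29 and 6.09 in point mutants, a difference of 3.10 (SE 0.53, 1.85 to 4.34, limma adjusted p = 0.0256). This call was lost in 6 of the 8 fits that left out a library and with no filter on low genes (limma adjusted p = 0.0812, 2.01% of all genes called).

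*Gata3* was at 0.142 and 0.231 TPM in control EBs and at 2.00 and 1.51 in point mutant EBs, a difference of 2.70 (SE 0.55, 1.43 to 3.97, limma adjusted p = 0.0401). *Gata3* and *Hand1* were the 2 of 6 genes called in EBs, where 4.53% of all genes were called and 3.76% were higher. The *Gata3* call was lost when any library was left out (limma adjusted p 0.0580 to 0.186), with no filter, with quantile normalization (2.18) and with only the EB groups fitted. The last 3 of these settings called 2.01%, 3.85% and 0.862% of all genes. *Gata2* was at 0.468 and 1.49 TPM in control EBs and 5.76 and 9.42 in point mutant EBs (2.97, SE 0.69, 1.35 to 4.6, limma adjusted p = 0.0585, and 0.0324 when genes below a mean of 1 TPM were dropped). *Tead4*, at 4.84 and 7.19 TPM against 9.11 and 13.7, differed by 0.91 (SE 0.28, adjusted p = 0.118). *Tfap2a*, at 1.55 and 1.04 TPM against 1.96 and 2.36, differed by 0.71 (95% interval -0.33 to 1.75, adjusted p = 0.424). *Gata2*, *Gata3*, *Hand1*, *Tead4* and *Tfap2a* did not overlap between control and point mutant EBs, which with 2 libraries against 2 was also true of 43.7% of all genes.

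In point mutant ESCs the remaining genes did not pass the test. *Gata3* was at 0.670 and 0.243 TPM in control and 1.03 and 1.82 in point mutant ESCs (1.52, 95% interval 0.25 to 2.79, limma adjusted p = 0.206). *Gata2* was at 2.15 and 7.87 TPM against 7.36 and 9.91, *Tfap2a* at 1.65 and 0.838 against 2.03 and 2.65, and *Elf5* at 0.148 and 0 against 0.602 and 0.196. *Tead4*, at 22.6 and 28.6 TPM against 21.5 and 22.6, had a difference of -0.21 (-0.86 to 0.45), the only negative one of the 6. Among the 6 genes 4 were free of overlap apart from *Hand1*, beside 45.4% of all genes.

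From ESCs to EBs of the point mutant line, *Tead4* in controls went from 22.6 and 28.6 TPM to 4.84 and 7.19, a difference of -2.09 (SE 0.28, -2.74 to -1.43, limma adjusted p = 0.00964). It was the only 1 of the 6 genes called there (4.73% of all genes called, 2% lower). The call was lost in 6 of 8 fits without 1 library and with no filter (limma adjusted p = 0.0518, 1.95% of all genes called). *Gata2* in controls went from 2.15 and 7.87 to 0.468 and 1.49 TPM (-2.15, SE 0.69, limma adjusted p = 0.139). *Gata3* in controls differed by -0.86 (adjusted p = 0.431). *Gata2*, *Gata3* and *Tead4* did not overlap between the stages in controls, beside 46% of all genes. In point mutants none of the 6 genes passed between ESCs and EBs by limma (0.133% of all genes called, 1 of the 6 under an unadjusted p of 0.05). *Tead4* there differed by -0.97 (adjusted p = 0.349), and *Gata2* and *Gata3*, at 7.36 and 9.91 against 5.76 and 9.42 TPM and at 1.03 and 1.82 against 2.00 and 1.51, overlapped between the stages. *Elf5*, *Hand1* and *Tead4* did not, beside 39.5% of all genes. The test of whether the mutant effect differed between EBs and ESCs called none of the 6 (0.00986% of all genes called, 1 of the 6 under an unadjusted p of 0.05). *Elf5* reached 0.186 TPM in 1 point mutant EB library and was listed at 0 in the other and in both control EB libraries.

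The summed fibroblast markers of this line were 58.3 to 67.4 TPM in control and 114 to 148 in point mutant ESCs, and 40.9 to 45.2 in control and 97.3 to 102 in point mutant EBs. *Col1a1* was at 5.56 to 16.3 TPM in ESCs and 3.01 to 11.7 in EBs, and 0 to 2 of the 18 markers were at 0. The part of these markers in the rise of *Hand1* and *Gata3* was not tested. The median of all genes also stood 0.119 above 0 in point mutant against control ESCs and 0.104 above in EBs. Median-of-ratios scaling removed this shift and kept the calls of *Hand1* and *Gata3*. Quantile normalization ended the *Hand1* call in ESCs and the *Gata3* call in EBs, where it called 1.02% and 3.85% of all genes. The part of the shift in these calls was not tested.

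**Figure D4:**
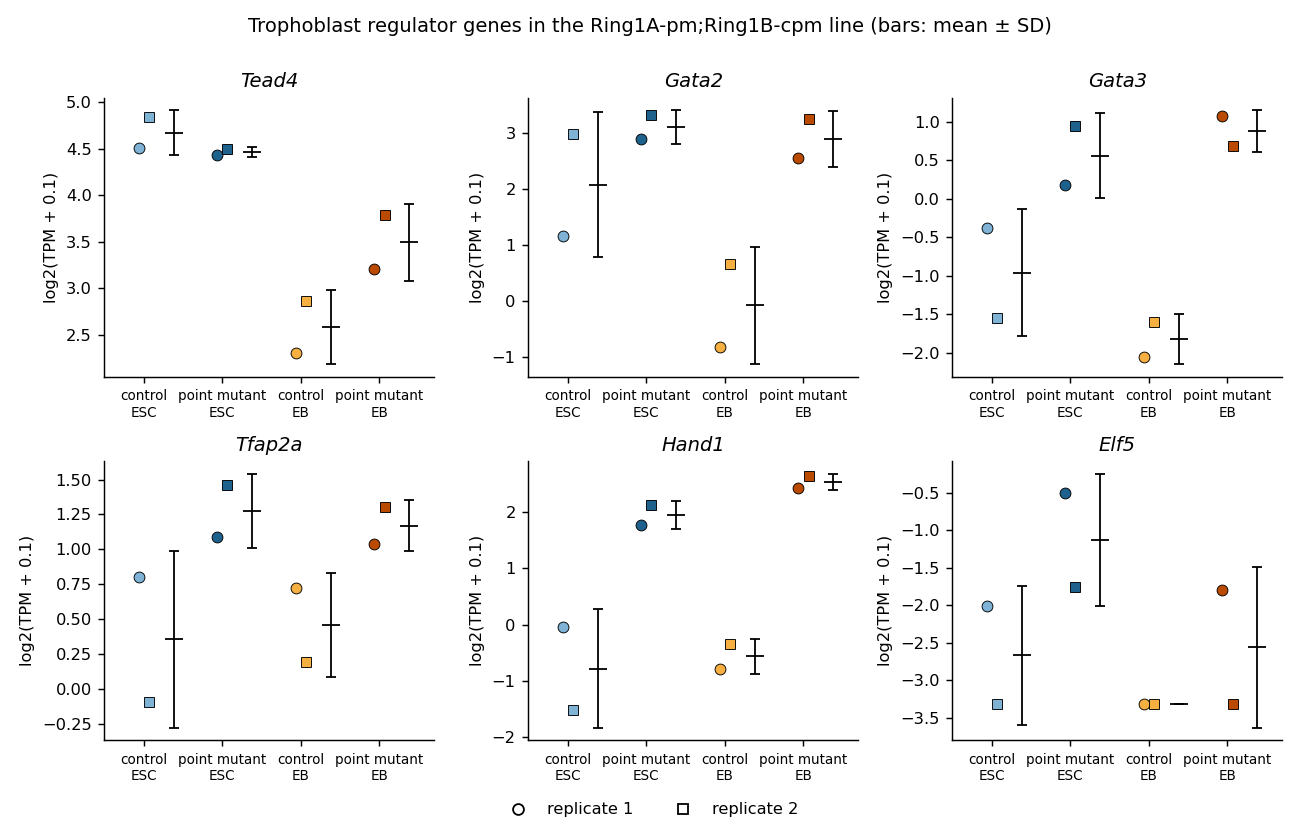
Levels of the 6 genes in the 8 libraries of the *Ring1A*-pm; *Ring1B*-cpm line, as log2(TPM + 0.1) by group, with a marker shape per replicate and bars for mean ± SD of 2 libraries. The *Hand1* libraries of both point mutant groups (3.32 to 6.09 TPM) lie above all control libraries, and *Tead4* is lowest in control EBs.

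Ordered by mean TPM over the 8 groups of both lines, *Gata2* was highest in *Pcgf1*-KO ESCs (17.6) and control ESCs of the *Pcgf1* line (13.5), then in point mutant ESCs (8.63), point mutant EBs (7.59) and control ESCs of the point mutant line (5.01), and lowest in *Pcgf1*-KO EBs (1.61), control EBs of the point mutant line (0.980) and control EBs of the *Pcgf1* line (0.892). Every neighbouring pair in that order overlapped. *Hand1* had its highest means in point mutant EBs (5.69) and point mutant ESCs (3.79), which were separate from each other and from the other 6 groups, none above 0.583.

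In the remaining 4 lines the labels and the deposited names disagree. The condition in the name differs from the label in 21 of 32 libraries, 4 of 8 in the *Ring1A/B* line, 6 of 8 in *Pcgf2/4*, 5 of 8 in *Pcgf3/5* and 6 of 8 in *Pcgf6*. *Klf4* went with the names, not the labels. In the *Ring1A/B* line it was 665 to 766 TPM in libraries named ESC and 7.38 to 118 in those named EB, but 7.38 to 766 in those labelled ESC. In the other 3 lines it was at least 120 TPM in every library named ESC and at most 16.1 in every library named EB. Tests below use the labels, and a library is called by its label, with its name beside it where they differ.

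Of the *Ring1A/B* line, the libraries labelled control ESC and mutant EB carry agreeing names, and this comparison, which spans stage and genotype at once, was added after the data had been seen. *Rnf2*, which the labels call *Ring1b* and give as deleted in the mutants, was at 77.2 and 78.2 TPM in these control ESCs and 78.1 and 80.5 in these mutant EBs, so its gene-level value does not show the deletion. *Hand1* was at 0.846 and 0.263 TPM in control ESCs and 22.5 and 22.1 in mutant EBs, a difference of 5.26 (SE 0.42, limma adjusted p = 3.79e-05). *Gata3* went from 0.862 and 0.620 to 8.16 and 6.87 TPM (3.19, SE 0.24, adjusted p = 2.73e-05), and *Tfap2a* from 1.04 and 1.27 to 9.60 and 9.12 (2.92, adjusted p = 7.27e-05). *Gata2* rose from 4.59 and 4.56 to 17.9 and 16.1 TPM (1.87, adjusted p = 1.02e-05) and *Elf5* from 0 in both to 0.318 and 0.0937. The *Elf5* call (limma adjusted p = 0.0179) was lost without either control ESC library. *Tead4* fell, from 33.9 and 33.0 to 18.9 and 18.3 TPM (-0.84, SE 0.11, adjusted p = 0.000509). All 6 genes were thus called, 5 higher, where 54.9% of all genes were called, 36.6% higher and 18.3% lower. The fibroblast marker sum was 227 to 235 TPM in these control ESCs and 123 to 126 in these mutant EBs, and its part was not tested.

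The other 4 *Ring1A/B* libraries carry crossed descriptions. *Hand1* was at 0.635 and 0.419 TPM in the libraries labelled mutant ESC, named control EB, and at 3.74 and 3.28 in those labelled control EB, named mutant ESC. *Gata3* was at 0.422 and 0.495 against 3.73 and 4.57, *Tfap2a* at 1.31 and 0.709 against 5.99 and 6.67, *Gata2* at 1.90 and 1.84 against 11.1 and 12.7, and *Tead4* at 7.93 and 6.07 against 27.4 and 27.8. Between the same groups the fibroblast marker sum was 55.7 to 56.6 against 584 to 614 TPM, in the same direction as these genes. Its part was not tested. By label, 5 of 6 genes were higher in control EBs, named mutant ESC, than in control ESCs (43.2% of all genes called, 28.6% higher). All 6 were higher in mutant EBs than in mutant ESCs, named control EB (56.5% called, 36.6% higher). *Gata2*, *Gata3* and *Hand1* were higher and *Tead4* lower in mutant EBs than in control EBs by label, named mutant ESC (33.3% called, 19.3% higher and 14.1% lower). *Gata2* and *Tead4* were lower in mutant ESCs by label, named control EB, than in control ESCs (48.8% called, 23.6% lower). The 4 calls between mutant and control EBs became 1 without control EB replicate 1 or mutant EB replicate 2, and 2 without control EB replicate 2 or mutant EB replicate 1, all by label. In the libraries labelled control EB, named mutant ESC, *Klf4* was at 665 and 709 TPM and *Fgf5* at 0.540 and 0.791. In those labelled mutant ESC, named control EB, *Klf4* was at 9.90 and 7.38 TPM and *Fgf5* at 27.98 and 27.47. By both markers the stage of these libraries went with their names, not their labels. The directions by label that involve them therefore do not show changes with stage or genotype as labelled. The genotype of these libraries was not tested.

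In the 4-group fits of the *Pcgf2/4*, *Pcgf3/5* and *Pcgf6* lines, none of the 6 genes passed the limma test in any of the 4 comparisons by label. Of all genes 0% were called in each comparison of *Pcgf2/4* and *Pcgf6*, and 0.0601%, 0%, 0.0401% and 0.0301% in those of *Pcgf3/5*. Every labelled group of *Pcgf2/4* and *Pcgf6* held a library named ESC and a library named EB. The same was true of the mutant groups of *Pcgf3/5*. The spread within such groups includes the stage difference, so these tests cannot show whether the 6 genes change. When only control EBs and control ESCs by label of *Pcgf3/5* were fitted, *Gata2*, *Gata3*, *Tead4* and *Tfap2a* were called, beside 24.9% of 19270 genes. At an unadjusted p under 0.05, at most 2 of the 6 genes passed in a comparison. The share of all genes at that threshold was not counted, so this says nothing particular to the 6. In the *Pcgf2/4* line the libraries labelled control ESC held *Gata2* at 8.43 TPM in the one named so and 0.639 in the one named control EB, and those labelled mutant EB held 6.95 in the one named mutant ESC and 1.49 in the one named so. The groups by label therefore mix high and low libraries. By their names, the 4 libraries called ESC held *Gata2* at 5.45 to 8.75 TPM and the 4 called EB at 0.639 to 1.49. *Hand1* was highest in the 2 libraries named mutant EB, at 1.69 and 2.54 TPM, and at most 0.786 in the other 6.

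*Hand1* showed the same layout in the *Pcgf6* line, with 2.94 and 3.08 TPM in the libraries named mutant EB, 0 in both named control EB and 0.109 to 1.18 in those named ESC. *Gata2* in *Pcgf6* libraries was at 2.58 and 3.43 in those named mutant EB and 0.406 and 0.342 in those named control EB, and *Tead4* at 5.24 and 6.62 against 1.12 and 1.86. The fibroblast marker sum differed by name as well. It was 107 to 218 TPM in the libraries named mutant, all labelled EB, and 19.9 to 75.9 in those named control, all labelled ESC. Its part in these values was not tested. *Elf5* had its highest value of all 59 libraries, 1.00 TPM, in a *Pcgf6* library labelled control EB and named mutant ESC. *Pcgf6* itself was at 34.7, 37.0, 35.7 and 46.3 TPM in the *Pcgf6* libraries named mutant. In those named control it was at 91.5, 105, 67.1 and 78.8. The *Pcgf3/5* line differed in its layout by name. *Gata2* was at 8.64 to 11 TPM in libraries named ESC, at 2.53 and 2.85 in those named control EB and at 1.17 and 1.38 in those named mutant EB, and *Hand1* did not pass 0.248 TPM in any library of the line. These values by name are descriptions and were not tested.

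**Figure D5:**
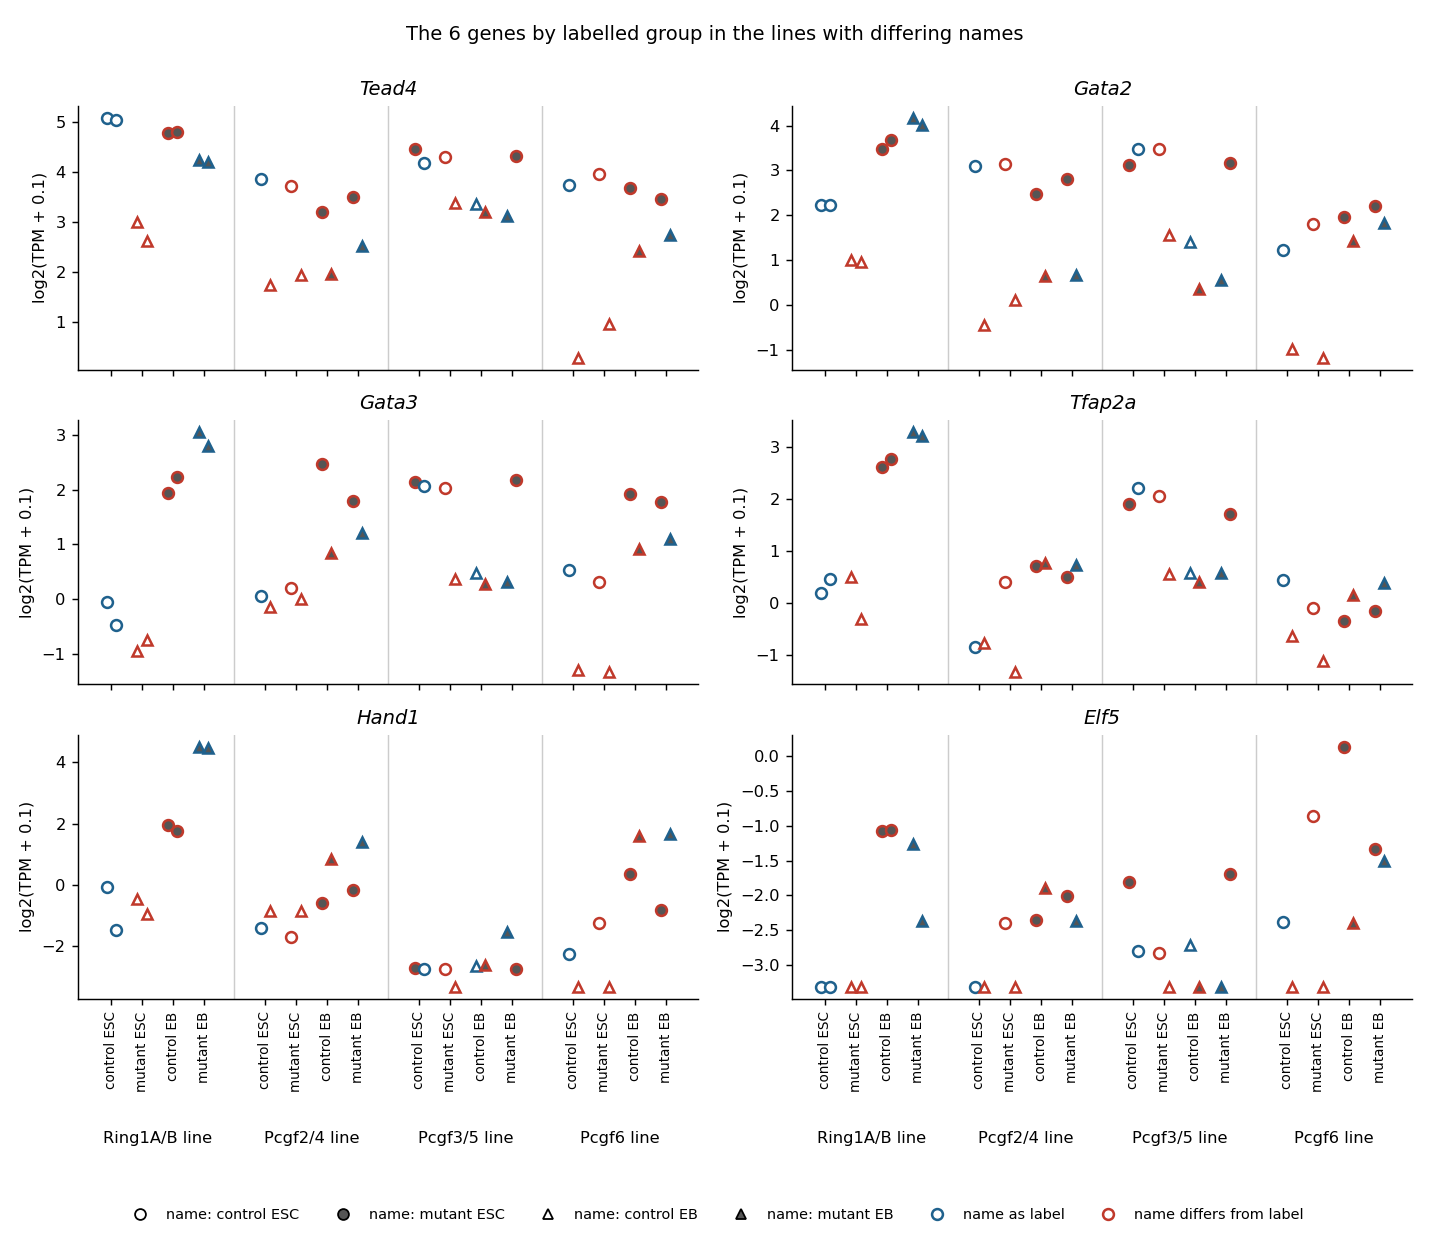
Levels of the 6 genes in 32 libraries, 8 each from the *Pcgf6*, *Pcgf3/5*, *Pcgf2/4* and *Ring1A/B* lines, as log2(TPM + 0.1), placed by labelled group. Circles and triangles mark names that say ESC and EB, open and filled symbols names that say control and mutant, and a red edge marks a name that differs from the label, which is the case for 21 libraries.

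Other trophoblast genes were read from a list of 30, of which 28 could be tested in the *Pcgf1* line and 27 in the point mutant line. From control ESCs to control EBs of the *Pcgf1* line 6 were higher and 8 lower, with a median of 0.16 beside 0.00 for all genes (24.9% of all genes called). *Gcm1*, a factor of syncytiotrophoblast, rose by 2.79, and *Sox21* (-2.87) and the keratin gene *Krt7* (-2.49) fell. In *Pcgf1*-KO cells over the same step 3 were higher and 7 lower (6 and 7 with the replicate block), beside 18.3% of all genes called (36.8% with the block). *Pcgf1*-KO against control EBs gave 4 higher and 1 lower, *Krt7* (-2.31), beside 1.95% of all genes called. Among the higher were *Eomes* (1.70, limma adjusted p = 0.00831), a T-box factor of trophoblast stem cells and of the primitive streak, and the protease gene *Mmp9* (1.78). In ESCs 2 were higher, *Bmp4* (2.00) and *Krt8* (1.27), and *Krt7* was lower (-1.69), beside 0.641% of all genes called. With the replicate block 5 were higher and 3 lower, beside 5.31% of all genes called. *Cdx2*, the trophectoderm factor downstream of TEAD4, stayed between 0.222 and 2.64 TPM in all 19 libraries.

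In point mutant against control ESCs 8 of 27 other trophoblast genes were higher and none lower, with a median of 1.22 beside 0.12 for all genes (2.34% of all genes higher). The homeobox genes *Esx1* (2.87, limma adjusted p = 0.0216) and *Rhox6* (2.39) and the receptor gene *Fgfr2* (2.11) led them. In EBs 7 were higher and none lower (3.76% of all genes higher), with a median of 1.02 beside 0.10, led by *Esx1* (3.45) and *Rhox6* (1.99). *Cdx2* was at 0.0708 and 0.347 TPM in control EBs and 1.63 in both point mutant EB libraries. From control ESCs to control EBs of this line 3 were higher, among them *Krt18* (2.52), and 1 was lower (4.73% of all genes called). None of the 27 was called between point mutant ESCs and EBs (0.133% of all genes called).

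Of 15 partners and targets of the Hippo pathway, 6 fell and 1 rose from control ESCs to control EBs of the *Pcgf1* line (7 and 1 in *Pcgf1*-KO cells). Beside these stand 24.9% of all genes called in controls and 18.3% in *Pcgf1*-KO cells. With the replicate block, 10 fell and 4 rose in each, where 43.9% and 36.8% of all genes were called. The YAP and TEAD target genes *Cyr61* (-5.54, limma adjusted p = 8.38e-10) and *Ctgf* (-4.11) fell with *Tead4*, and *Amot*, which holds YAP outside the nucleus, rose (2.54). Both target genes are also strongly expressed by fibroblasts. Over the same step 10 of 18 fibroblast markers were lower and 2 higher, beside 13.4% of all genes lower (24.9% called). The markers' part in the fall of the target genes was not tested. None of the 15 was called between *Pcgf1*-KO and control cells at either stage (0.641% of all genes called in ESCs, 1.95% in EBs). With the replicate block 1 was higher and 1 lower at each stage (5.31% and 10.4% of all genes called). In the point mutant line *Cyr61* fell in controls (-2.24) and was higher in point mutant EBs (2.30) and ESCs (1.81), the latter not called after median-of-ratios scaling or quantile normalization.

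Among 16 genes related to the 6 by sequence, 5 fell and 1 rose from control ESCs to control EBs of the *Pcgf1* line (6 and 3 with the replicate block). Beside them 24.9% of all genes were called, and 43.9% with the block. The ETS factor gene *Elf3* (-3.16) and *Tfap2c* (-1.91), the AP-2 factor gene of trophoblast and germ cells, fell. In *Pcgf1*-KO against control EBs 3 rose, *Gata6* (2.60), *Elf4* (2.08) and *Gata4* (1.4), beside 1.95% of all genes called. *Gata4* and *Gata6* are also markers of primitive endoderm, of which 3 of 7 listed genes rose (5 with the replicate block, where 10.4% of all genes were called). In point mutant cells 3 of the 16 were higher in ESCs (1 with quantile normalization), *Gata4* (2.87) and *Gata6* (2.38) among them. In EBs 4 were higher, among them *Hand2* (3.29), *Tfap2e* (2.76) and *Elf3* (1.67). The shares of all genes higher were 2.34% in ESCs and 3.76% in EBs, and quantile normalization called 1.02% in ESCs.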

How the data were processed

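The authors aligned single-end reads with STAR (version 2.5.2b) to mm9 and deposited TPM per gene symbol. The step from counts to TPM is not given in the sources used here. The authors used DESeq2 for their own fold changes, which were not used. Every library sums to 1000000 TPM, so depth is unknown and its effect on the precision of low genes cannot be computed.

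Libraries were grouped by their labels. In R (version 4.3.3), limma (version 3.58.1) was fitted to log2(TPM + 0.1) once for each line, with its 4 groups as terms, a mean-variance trend, genes above 0 TPM in at least 1 library of the line, Benjamini-Hochberg adjustment over all of them and a threshold of 0.05. The numbers of genes tested were 20594 (*Pcgf1*), 20279 (*Ring1A*-pm; *Ring1B*-cpm), 20344 (*Ring1A/B*), 19250 (*Pcgf2/4*), 19963 (*Pcgf3/5*) and 19695 (*Pcgf6*). The fit was tested on simulated data. Python (version 3.11.15) with pandas (version 2.3.3), numpy (version 2.4.6) and matplotlib (version 3.10.9) made tables and plots. The members and gene lists were chosen with earlier results of these data known. All 6 members are named. Of each list, up to 3 genes with the greatest change among those called and averaging 1 TPM or more in either group are named, with *Cdx2*, *Eomes* and targeted genes, and for each member up to 3 genes of the most alike pattern. *Klf4*, *Fgf5* and *Col1a1* serve as markers.

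Same-numbered libraries of the *Pcgf1* line were treated as pairs, because deviations from group means correlated in all 18 pairs (r 0.317 to 0.653, genes averaging 1 TPM or more). The labels give the numbers, and a *Pcgf1*-KO EB library is 4 by title and 5 by characteristics (the title was used). The deposited headers place replicate 1, replicates 2 and 3, and replicates 4 and 5 of this line in 3 library series. Correlations between libraries with different numbers were not computed, so this cannot tell pairs from libraries of a shared series. Pairing is thus an assumption, and the calls with the replicate block rest on it. No 2 libraries held identical values. The alternatives tried were quantile normalization, median-of-ratios scaling, a pseudocount of 1, no filter, a filter at a mean of 1 TPM, the replicate block, only the groups compared, and leaving out each library in turn.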

Additional observations from a re-analysis of the deposited data

Results flagged for a closer look

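Only groups of 4 or 5 libraries, which means the *Pcgf1* line, could be examined for a library far from the others, and chance flags about 1 in 20 such groups. *Gata2* stood at 2.10 TPM in control EB replicate 3, beside 0.715 in the next highest library. *Hand1* stood at 0.759 TPM in control EB replicate 1, with all other libraries of that group listed at 0. *Tfap2a* stood at 4.96 TPM in *Pcgf1*-KO ESC replicate 1, beside 3.81 in the next. No gene of the 6 had a mutant effect that differed between EBs and ESCs past the threshold.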

How the results depend on the processing

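Among the counts of the 6 genes called, these moved by over 1.5 times. In *Pcgf1*-KO against control EBs the count of 0 became 1 with quantile normalization (*Tfap2a*), 2 with the replicate block and 0 to 1 with a library left out (*Tfap2a* at limma adjusted p = 0.0393 without *Pcgf1*-KO EB replicate 1). Quantile normalization called 2.69% of all genes there and the replicate block 10.4%. In the point mutant line, the count of 1 in control EBs against control ESCs became 0 with no filter (1.95% of all genes called), 2 with the replicate block (*Gata2*, limma adjusted p = 0.0217) and 0 to 1 with a library left out. Point mutant against control ESCs went from 1 to 0 with no filter, quantile normalization, only the groups compared and every library left out (0 to 0). The first 3 of these settings called 0.812%, 1.02% and 0% of all genes. Point mutant against control EBs went from 2 to 0 with no filter, 1 with quantile normalization or only the groups compared, 4 with the replicate block (*Gata2* and *Tead4* at limma adjusted p = 0.00953 and 0.0308) and 0 to 1 with a library left out. Of all genes 2.01% were called with no filter, 3.85% with quantile normalization and 0.862% with only the groups compared. In the *Ring1A/B* line, mutant against control EBs by label moved from 4 to between 1 and 5 with a library left out. In *Pcgf3/5*, control EBs against ESCs by label went from 0 to 4 with only the groups compared, where 24.9% of all genes were called. The block in the point mutant line rests on 2 pairs per comparison, for which the labels give a number but no shared origin (r of deviations 0.258 to 0.381), and calls 9.95% and 10.1% of all genes in those comparisons. It also moved the other trophoblast genes higher in point mutant EBs from 7 to 11 and in ESCs from 8 to 12, and those related to the 6 by sequence from 4 to 8 in EBs and 3 to 5 in ESCs. Between point mutant and control ESCs the block called 6.54% of all genes. The cause of these changes was not tested.

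Some differences near 0, none of them called, changed sign. In controls of the point mutant line from ESCs to EBs, quantile normalization gave -0.082 for *Hand1* and -0.16 for *Tfap2a*. With a library left out, the *Pcgf1* line gave -0.93 to 0.22 for *Hand1* (control EBs against ESCs), -0.39 to 0.16 for *Elf5* (*Pcgf1*-KO against control ESCs), and -0.16 to 0.39 for *Elf5* and -0.019 to 0.48 for *Tead4* in the difference of effects between stages. The point mutant line gave, in controls across stages, -0.53 to 0.96 (*Hand1*) and -0.35 to 0.55 (*Tfap2a*), in point mutants across stages -0.56 to 0.14 (*Gata2*), -0.067 to 0.71 (*Gata3*) and -0.29 to 0.081 (*Tfap2a*), and in the difference of effects -0.38 to 1.11 (*Hand1*) and -0.65 to 0.24 (*Tfap2a*).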

Other observations

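Across the 19 libraries of the *Pcgf1* line, the genes whose log2(TPM + 0.1) followed each member most closely were sought among genes that averaged 1 TPM or more. These correlations are descriptions, since the libraries share stages and replicate numbers. *Gata2* was followed most closely by *Eed* (Pearson r = 0.973), which encodes a subunit of PRC2, and then by *Slc5a6* (0.971) and *Hoxc13* (0.969). *Tead4* was followed by *Cyb5r3* (0.972) and *Limk2* (0.971), *Gata3* by *Gpr107* (0.934), and *Tfap2a* by *Hoxc4* (0.930). The highest values for *Hand1* (*Nexn*, 0.816) and *Elf5* (*Mir6976*, 0.798) were lower, and both genes were listed at 0 in many of these libraries.

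Lists for other lineages moved in the point mutant line as well. The shares of all genes called were 4.53% in point mutant against control EBs (3.76% higher) and 2.54% in ESCs (2.34% higher). From control ESCs to control EBs the share was 4.73%. Of 7 formative epiblast genes, all rose from control ESCs to control EBs, with a median of 4.78, and 5 were lower in point mutant than in control EBs (median -1.92 beside 0.10 for all genes). Of 10 genes of mesoderm and primitive streak, 3 were higher in point mutant EBs and 2 in point mutant ESCs (medians 1.91 and 1.5). Of 9 genes of surface ectoderm and neural crest, tissues that also use TFAP2A, 1 and 2 were higher (medians 1.13 and 1.19). Of 7 primitive endoderm genes 2 were higher at each stage (medians 1.61 and 1.78), and of 8 pluripotency genes 3 were higher in EBs (median 0.88). The other trophoblast genes had medians of 1.02 and 1.22 at these stages, beside 0.10 and 0.12 for all genes. With quantile normalization these counts were 1 and 0 for mesoderm and 0 and 0 for surface ectoderm, beside 3.85% of all genes called in EBs and 1.02% in ESCs.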
